A study of Mus musculus with 3 samples.

Results

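The internal plexiform layer (IPL) is the thin band of the olfactory bulb between the layer of mitral cell bodies and the granule cell layers. Its members were the array spots that the authors' annotation assigned to the IPL: 102493 of the 2250425 spots under tissue, or 44757, 27522 and 30214 in sections 1, 2 and 3. The samples were 3 coronal sections of the main olfactory bulb of adult mice (strain C57BL/6J, 12 weeks of age), with no treatment and no genetic change named in the labels. All 3 sections form 1 group, and the comparison was between regions of the same section. On the outer side of the IPL the annotation has the olfactory nerve layer (ONL), then the glomerular layer (GL), then the EPL, the external plexiform layer, and then M/T, the layer of mitral cell bodies. On its inner side it has GCL-E and GCL-I, the granule cell layer in an external and an internal part, followed by E, an ependymal zone, and RMS, the rostral migratory system.

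As background, the mitral and tufted cells are the excitatory output neurons of the bulb, and their axons and axon collaterals leave the mitral layer through the IPL. Granule cells are inhibitory interneurons without an axon, and the dendrites of those in the deeper layers cross the IPL on their way to the EPL, where they form reciprocal synapses with mitral and tufted cell dendrites. The IPL itself is known for few cell bodies, for myelinated fibres and for scattered deep short-axon cells. RNA captured there can come from cell bodies, from RNA in processes, or from adjoining layers.

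RNA with a poly(A) tail was captured on an array of barcoded spots, and each value is a transcript count per spot and gene. A spot is a small area that can hold parts of several cells or part of 1. IPL spots gave 24576, 30651 and 25307 counts in sections 1, 2 and 3, which was 5.65% ± 1.30 (SD, n = 3) of the counts in annotated regions. At least 1 count was found on 15.6%, 24.6% and 22.2% of IPL spots, and spots with counts held a median of 3 counts in each section. Counts were therefore summed per section and region, and levels are given as counts per 1000000 counts of the sum (CPM). With these sums, 3 counts of a gene in the IPL equal 122, 97.9 and 119 CPM in sections 1, 2 and 3, and lower values rest on fewer counts than that. A total of 1996 genes passed the filter on low counts. Tests were made with edgeR's quasi-likelihood test with section as a block, and the Benjamini-Hochberg adjusted p had to be below 0.05. With section as a block, p-values measure how far differences between regions vary among these 3 sections, pooled over all 9 regions. The labels do not say whether the sections came from separate animals, so this variation may be technical. A lower level in a region can mean fewer cells of a type or less RNA per cell, and these cannot be told apart in summed counts.

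Section 1 stood apart from the other sections. Across the tested genes, which are not independent replicates, IPL log2 levels correlated at r = 0.369 between sections 1 and 2, at 0.363 between sections 1 and 3 and at 0.621 between sections 2 and 3. Lars2, whose product loads leucine onto the tRNAs of mitochondria, had 40.7 CPM in the IPL of section 1 and 13572 and 13119 CPM in sections 2 and 3. Whether all counts given to Lars2 came from RNA of that gene was not tested. The file labels of sections 2 and 3 share an array code that section 1 does not have, and its meaning is not given. Values are therefore given for each section.

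The IPL was narrow, and most of its spots lay close to another region. The distances of an IPL spot to the nearest M/T spot and to the nearest GCL-E spot summed to a median of 14, 11.4 and 12.1 array positions in sections 1, 2 and 3. Within 5 array positions of another region lay 74.5%, 85.4% and 81.4% of the IPL spots. The nearest other region was M/T for 51.0%, 49.3% and 51.0% of them and GCL-E for 49.0%, 49.6% and 48.6%, so both neighbours bordered the IPL to a like extent. Counts per 100 spots were 54.9, 111 and 83.8 in the IPL, 44.8, 131 and 97.6 in M/T and 52.3, 110 and 88.0 in GCL-E. The IPL was above both in section 1, between them in section 2 and below both in section 3.

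Mobp (chr9:120149707-120181484 in mm10), which encodes a structural protein of compact myelin and was the marker named for the IPL, was not highest there. Its IPL level was 488, 750 and 711 CPM in sections 1, 2 and 3 (mean 650 ± 141, SD, n = 3; 53 counts in all). Ranked by mean, the IPL came after RMS (705 ± 775 CPM), GCL-E (694 ± 213) and E (667 ± 138), and these 4 means differed by less than their SDs. GCL-I (414 ± 39.3), ONL (339 ± 156), EPL (287 ± 74.5), GL (279 ± 44.3) and M/T (219 ± 162) followed. The fitted log2 fold change of IPL over GCL-E was 0.06 (SE 0.35, edgeR adjusted p = 0.984). Against the mean of the other 8 regions it was 0.64 (edgeR adjusted p = 0.489).

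Against the mitral layer, the IPL had more RNA of 1 myelin gene in the main fit. It had less RNA of 2 genes of the mitral and tufted cells and of Map1b. Of the 1996 genes, 4 passed the threshold (0.2%), 1 of them higher in the IPL and 3 lower. DESeq2 called 3 genes, 0 of them higher in the IPL. With no filter on low counts 2 passed, also with 0 higher, so the call of Mobp was lost in both settings. Mobp was higher by 1.80 log2 units (SE 0.43, edgeR adjusted p = 0.0146), with M/T levels of 381, 56.6 and 219 CPM that all lay below the lowest IPL level.

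Doc2g, a C2-domain protein gene used as a marker of mitral and tufted cells (chr19:4003313-4007005), had 1459, 680 and 593 CPM in M/T and 407, 131 and 0 CPM in the IPL. The 0 counts of section 3 allow up to 119 CPM there. The groups did not overlap, and the fitted change was -2.30 log2 units (SE 0.42, edgeR adjusted p = 4.75e-05). In GCL-E Doc2g had 92.1, 330 and 167 CPM, which overlaps the IPL (log2 fold change -0.35, SE 0.62, edgeR adjusted p = 0.943).

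Cdhr1, a protocadherin-like gene that is another mitral and tufted cell marker (chr14:37077857-37098347), had 761, 651 and 781 CPM in M/T and 610, 97.9 and 119 CPM in the IPL. The IPL of section 1 was nearly as high as M/T, while sections 2 and 3 were far lower, and the fitted change was -1.57 log2 units (SE 0.38, edgeR adjusted p = 0.0201). In GCL-E it had 0, 47.1 and 83.3 CPM from 3 counts.

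Map1b, which encodes a microtubule-associated protein of axons and dendrites (chr13:99421446-99516540), had 381, 3086 and 3155 CPM in M/T and 366, 1207 and 1106 CPM in the IPL. In section 1 both regions were low, so the ranges overlap across sections, and in sections 2 and 3 M/T was far higher. The fitted change was -1.33 log2 units (SE 0.26, edgeR adjusted p = 0.000214).

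Except for that of Doc2g, the calls against M/T rested on sections 2 and 3. Without section 2 the changes of Mobp (1.07), Cdhr1 (-1.26) and Map1b (-1.28) kept their direction at edgeR adjusted p = 0.84, 0.84 and 0.352, and without section 3 they did so (1.92, -1.17 and -1.18) at 0.155, 0.598 and 0.155. Doc2g passed without any 1 section (edgeR adjusted p between 0.000174 and 0.0384), and without section 1 its change was -3.17, that of Cdhr1 was -2.76 and 13 genes passed.

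**Figure D1:**
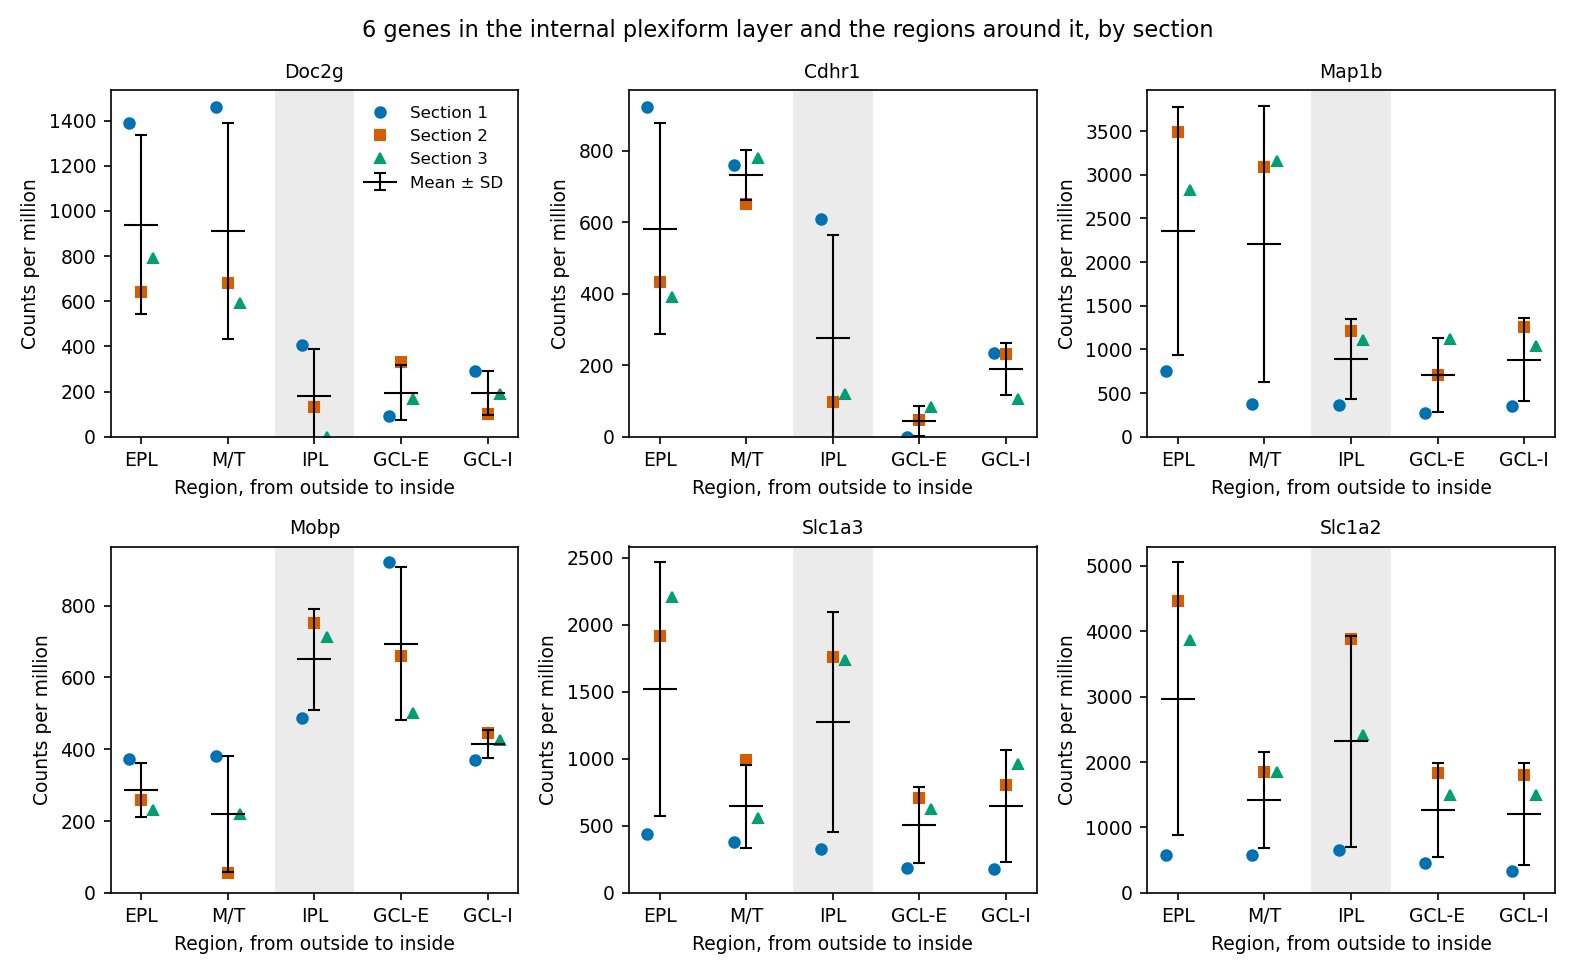
Levels in CPM (y axis, linear) of 6 genes in the IPL (grey band) and the regions around it, ordered from outside to inside (x axis); each point is 1 of 3 sections, and black bars are the mean ± SD, cut at 0. Doc2g and Cdhr1 fall from M/T to the IPL, Mobp is higher in the IPL than in M/T in each section, and Slc1a3 is above M/T and GCL-E in sections 2 and 3 but not in section 1.

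Genes of the mitral and tufted cell list had negative changes against M/T. All 11 tested genes of its 18 had a negative log2 change against M/T, with a median of -1.42 beside 0.01 over all tested genes, and 2 of them passed (Doc2g and Cdhr1, beside 0.15% of all genes called lower). Slc17a7, the vesicular glutamate transporter of these neurons, had 1459, 623 and 875 CPM in M/T, 814, 261 and 316 CPM in the IPL and 276, 236 and 125 CPM in GCL-E. Its values stepped down from layer to layer in each section, but its change against M/T did not pass (-1.17 log2 units, SE 0.33, edgeR adjusted p = 0.0914). The summed level of the list was 7929, 5748 and 6559 CPM in M/T, 4598, 1827 and 1383 CPM in the IPL and 2856, 1697 and 1416 CPM in GCL-E. On the line from GCL-E to M/T the IPL thus lay at 34.3%, 3.20% and -0.65% of the way (mean 12.3 ± 19.2, SD, n = 3), which is near the granule side in sections 2 and 3 and further towards M/T in section 1.

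Against GCL-E, no gene passed in either direction (0.0% of 1996 genes in edgeR), while 115 had an unadjusted p below 0.05. DESeq2 likewise called 0 genes, with 105 at an unadjusted p below 0.05. Some other settings gave calls, all higher in the IPL. There were 3 without the rostral migratory system, and 1 each with library sizes alone, with only the regions compared, without section 1 and without section 3. The 4 genes with the smallest p were Slc1a3, Acsl6, Celf3 and Slc1a2. Acsl6, an acyl-CoA synthetase, had 366, 392 and 158 CPM in the IPL and 0, 0 and 83.3 CPM in GCL-E (2 counts; edgeR adjusted p = 0.0973). Celf3, an RNA-binding protein of neurons, had 40.7, 65.3 and 79.0 CPM in the IPL and 276, 471 and 375 CPM in GCL-E. Its groups did not overlap, and its edgeR adjusted p was also 0.0973, with 5 counts in the IPL.

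Genes of granule cells gave no call against either granule cell layer. Of the 11 tested genes of the 13 in the list, 10 had a negative change against GCL-E (median -0.30, all genes 0.04) and 11 against GCL-I (median -0.49, all genes -0.01), and 0 passed in either comparison. Gad1, which encodes an enzyme of GABA synthesis, had 4150, 1990 and 2134 CPM in the IPL, 2488, 3017 and 2833 CPM in GCL-E and 2220, 2095 and 1624 CPM in M/T. The IPL of section 1 was above both neighbours, that of section 2 was below both and that of section 3 lay between them. Tshz1, a transcription factor gene of bulb interneurons, had 285, 326 and 553 CPM in the IPL and 276, 1037 and 958 CPM in GCL-E, a change of -1.04 log2 units (edgeR adjusted p = 0.649). Penk, the precursor of enkephalins, had 895, 228 and 198 CPM in the IPL and 553, 519 and 417 CPM in GCL-E. Of other list members, Pcp4, Meis2, Slc32a1 and Gad2 had mean IPL levels of 0.79, 0.82, 0.79 and 1.16 times those in GCL-E. The list's summed level lay at 0.33%, 94.0% and 69.2% of the way from GCL-E to M/T (mean 54.5 ± 48.5), so the sections did not give 1 position.

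**Figure D2:**
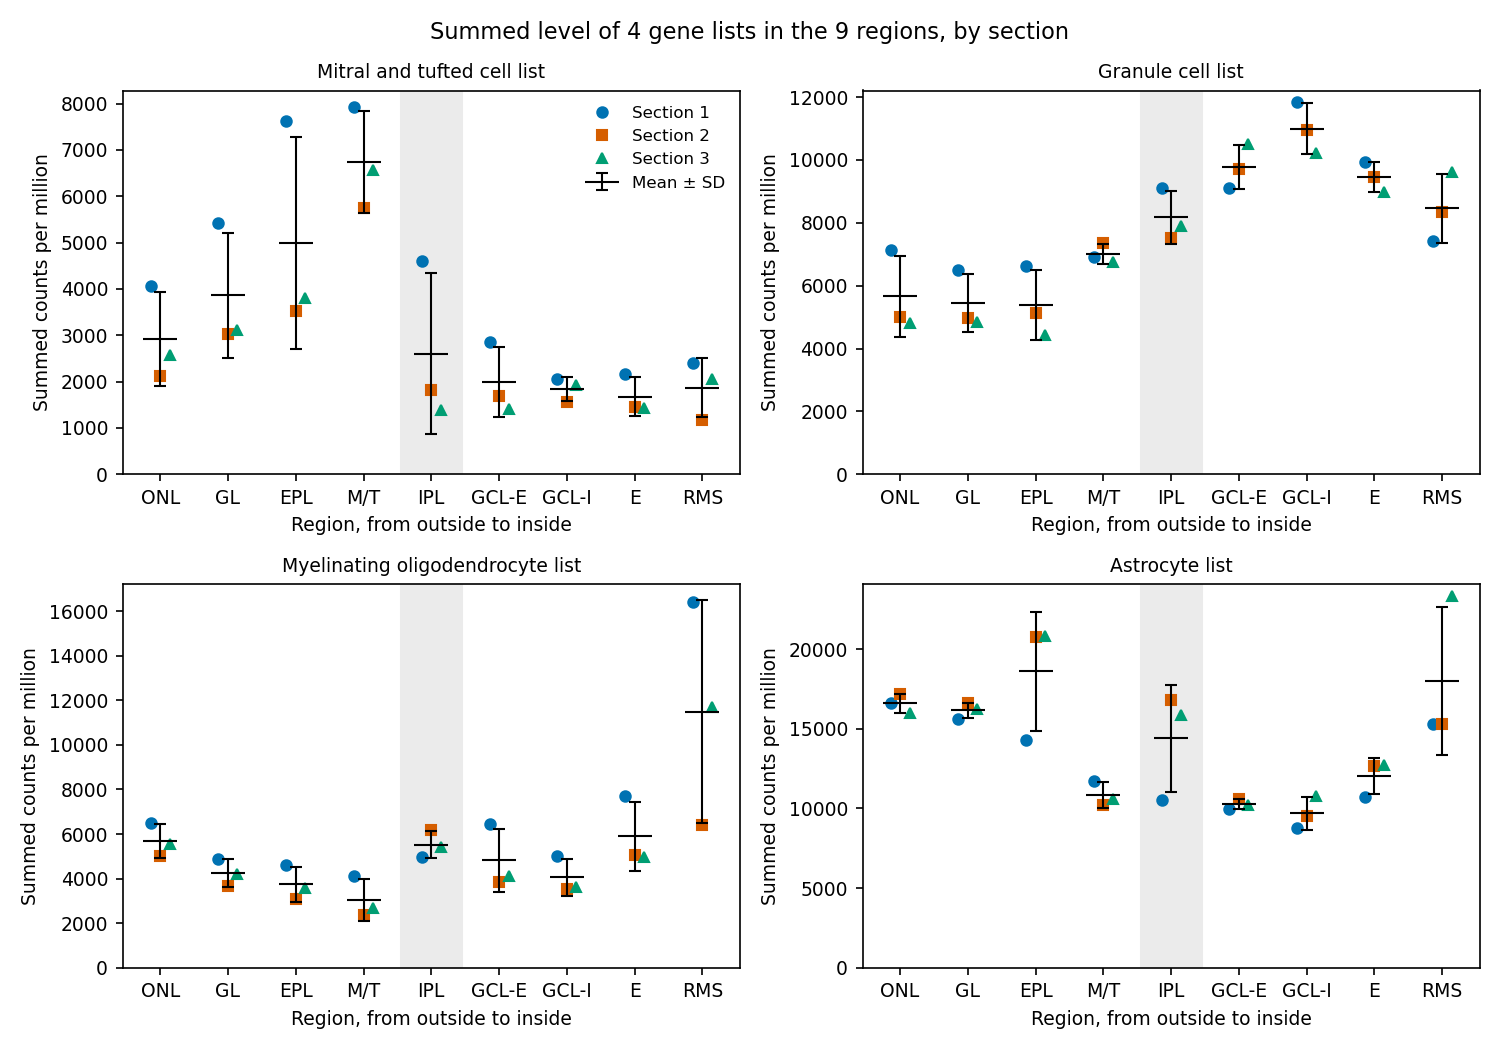
Summed level of 4 gene lists in CPM (y axes, linear) in the 9 regions from outside to inside (x axes), with the IPL in grey; points are the 3 sections and black bars the mean ± SD. The mitral and tufted list drops from M/T to the IPL, the granule list is higher in the granule cell layers than in M/T, and the astrocyte list of the IPL is at 16802 and 15845 CPM in sections 2 and 3 and at 10539 CPM in section 1.

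Whether the IPL lies between its neighbours was asked gene by gene. Where the neighbours themselves differed, it did in most cases: 15 genes passed between M/T and GCL-E (0.752% of 1996), 13 of them higher in M/T (0.651%) and 2 lower (0.1%), and the mean IPL level lay between the other 2 means for 14 of them. The exception was Doc2g, whose mean was below both. The set of 15 depended on all sections, and most on sections 2 and 3. Of the 15, 3 passed without section 2, 3 without section 3 and 9 without section 1, and DESeq2 called 6. Without section 1, 12 genes passed in all. Over all tested genes, the mean lay between for 37.5%, above both for 31.1% and below both for 31.4%, so the IPL took each place about equally often. Among the 429 genes with at least 30 IPL counts it lay between for 35.0%, above both for 43.4% and below both for 21.7%. Choosing genes by their IPL counts itself favours a high IPL level. For 9 of the 15 genes the IPL was between in each of the 3 sections, beside 5.91% of all tested genes. Choosing genes for a wide gap between M/T and GCL-E itself favours a place between them. The higher shares among the 15 therefore do not show a trait of the IPL.

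By section, 14, 13 and 10 of the 15 lay between in sections 1, 2 and 3. The position of the 15 genes, on the fitted log2 scale, ran from -17.9% of the way from GCL-E to M/T (Doc2g) to 70.4% (Ttll7, a tubulin-modifying enzyme), with a median of 40.7%. Mobp, at -3.24%, also lay just beyond GCL-E on this scale, although its mean CPM lay between. Nearer to GCL-E were 11 genes and nearer to M/T 4, which were Rab3b, Ptk2b, Cdhr1 and Ttll7. Against M/T 4 of the 15 passed, and against GCL-E and against the midpoint 0 of them did. The 15 were chosen by the difference between the neighbours, whose values also enter the position, so the counts are given as a description with no test.

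Examples show the steps. Rab3b, a vesicle-associated GTPase, had 507, 510 and 625 CPM in M/T, 407, 97.9 and 158 CPM in the IPL and 92.1, 47.1 and 83.3 CPM in GCL-E, at 51.7% of the way. Ptk2b, a tyrosine kinase of neurons that was lower in M/T than in GCL-E by 2.45 log2 units, lay at 52.6% of the way.

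**Figure D3:**
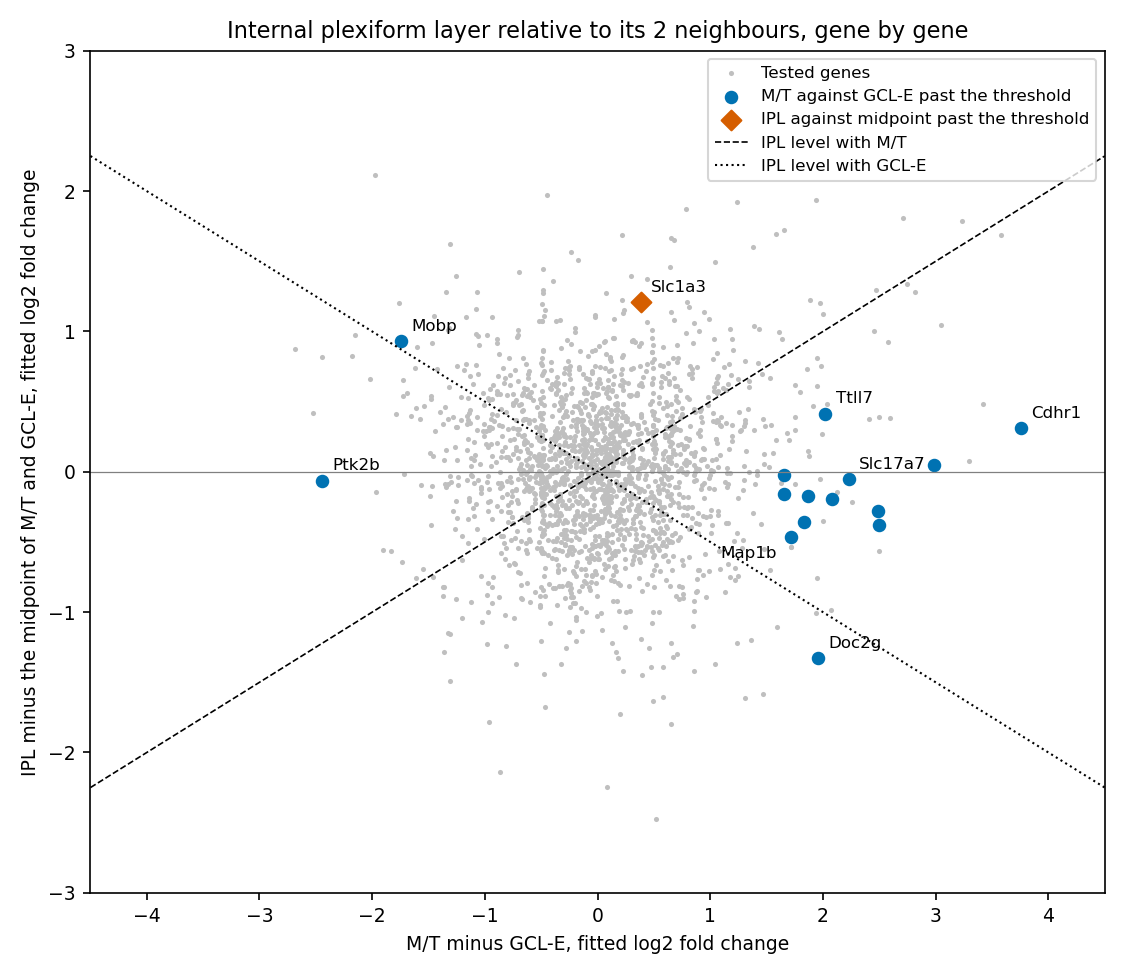
Fitted log2 fold change of M/T over GCL-E (x axis) and of the IPL over the midpoint of both (y axis) for the tested genes, of which 4 lie outside the axes; between the dashed and dotted lines, left and right of their crossing, the IPL lies between its neighbours. Of the 15 genes that differ between M/T and GCL-E (blue), Doc2g and Mobp lie just beyond the level of GCL-E, and Slc1a3 (orange) is above both neighbours.

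Against the midpoint of M/T and GCL-E on the log2 scale, 1 gene passed (0.0501% of 1996). This was Slc1a3 (chr15:8634124-8710764), the glutamate transporter GLAST of astrocytes, which was higher by 1.21 log2 units (SE 0.26, edgeR adjusted p = 0.00958). It had 326, 1762 and 1739 CPM in the IPL, 381, 991 and 562 CPM in M/T and 184, 707 and 625 CPM in GCL-E. The IPL was above both neighbours in sections 2 and 3 and between them in section 1. Neither neighbour alone gave a call, with changes of 1.02 against M/T (edgeR adjusted p = 0.0915) and 1.40 against GCL-E (0.0657). Without section 2 the change against the midpoint was 1.29 (edgeR adjusted p = 0.974) and without section 3 it was 0.94 (0.875), so the call needs both. By the same comparison, chosen after seeing the data, M/T differed from the midpoint of the EPL and the IPL in 11 genes (0.551%), all of them lower in M/T (0.551%). That direction turned with the scaling: RLE scaling gave 26 genes, library sizes alone 27 and DESeq2 19, of which 15, 15 and 11 were higher in M/T. Leaving out section 1 gave 30 genes, leaving out section 2 gave 1 and leaving out section 3 gave 0. GCL-E differed from the midpoint of the IPL and GCL-I in 0 genes (0.0%; 82 at an unadjusted p below 0.05, and 0 called by DESeq2).

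Slc1a2 (chr2:102658659-102790784), which encodes the other main glutamate transporter of astrocytes, GLT-1, had 651, 3882 and 2410 CPM in the IPL. In M/T it had 571, 1840 and 1843 CPM and in GCL-E 461, 1839 and 1500 CPM, below the IPL in each section. The changes were 0.72 against M/T (edgeR adjusted p = 0.204), 0.94 against GCL-E (0.172) and 0.83 against the midpoint (0.0884). Against GCL-I, with 331, 1798 and 1491 CPM, it was the 1 gene that passed (0.0501% of 1996), higher by 0.96 (SE 0.22, edgeR adjusted p = 0.0374). That call was lost without section 2 (0.76, edgeR adjusted p = 0.894) and without section 3 (1.07, 0.312).

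Most other genes of the astrocyte list had a higher mean in the IPL than in both neighbours, without passing. Of the list's 15 tested genes, 13 did so, beside 31.1% of all tested genes and 43.4% of those with at least 30 IPL counts. Above the midpoint on the log2 scale were 14 of the 15 (median 0.54, all genes 0.04), with 1 call. By section, 4, 13 and 11 of the 15 were above both in sections 1, 2 and 3, and 3 were so in each section. The exceptions were S100b, a calcium-binding protein of astrocytes with 9 counts in the IPL, whose mean was below both (-0.60 against the midpoint, edgeR adjusted p = 0.912), and Glul. Glul, glutamine synthetase, had 732, 1599 and 1620 CPM in the IPL, beside 507, 1048 and 1968 CPM in M/T and 1290, 1650 and 1333 CPM in GCL-E. The summed level of the list was 10539, 16802 and 15845 CPM in the IPL, 11735, 10221 and 10589 CPM in M/T and 9951, 10608 and 10247 CPM in GCL-E. Section 1 thus put the IPL between its neighbours, and sections 2 and 3 put it above both.

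The EPL, the other plexiform layer, lies on the far side of the mitral layer. Between the 2 plexiform layers 64 genes passed (3.21% of 1996), 12 higher in the IPL (0.601%) and 52 lower (2.61%). This split depends on the scaling: with library sizes alone 68 genes passed, 35 higher and 33 lower, as the median change of all genes moved from -0.07 to 0.12. DESeq2 called 31 genes (8 higher and 23 lower). The calls rest mostly on sections 2 and 3. Without section 1, 61 genes passed (13 higher), and 50 of them were among the 64. Only 5 passed without section 2 (0 higher) and 19 without section 3 (1 higher). So no gene passed as higher in the IPL when section 2 was left out.

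Of the genes higher in the IPL, the 6 with the largest change among those in the same direction in each section were Ube2ql1, Ipcef1, Fam163b, Mobp, Hivep2 and Prkca. The mean IPL levels of Ipcef1, Fam163b, Mobp, Hivep2 and Prkca were 1.06, 0.82, 0.94, 1.08 and 0.80 times those in GCL-E. High levels of these genes were thus not particular to the IPL. Ube2ql1, annotated as a ubiquitin-conjugating enzyme-like gene, had 895, 424 and 316 CPM in the IPL and 165, 142 and 152 CPM in the EPL (log2 fold change 1.55, SE 0.34, edgeR adjusted p = 0.000428). The groups did not overlap, and the same held for Prkca, protein kinase C alpha, with 692, 620 and 711 CPM in the IPL and 371, 279 and 295 CPM in the EPL. Mobp was higher by 1.04 (SE 0.29, edgeR adjusted p = 0.0182). Mbp, myelin basic protein, was higher by 0.79 (edgeR adjusted p = 0.0108), though in section 1 it was level, with 1668 CPM in the IPL and 1720 CPM in the EPL. Gad1 was also higher in the IPL than in the EPL, by 0.85 (edgeR adjusted p = 0.00108), and exceeded it in each section.

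Of the genes lower in the IPL than in the EPL, the 6 with the largest change under the same rule were Slc7a11, S100a5, Doc2g, Cck, Nfia and Hba-a1. Slc7a11, a cystine transporter, had 0 counts in the IPL of every section, which allows up to 122, 97.9 and 119 CPM, and 41.3, 104 and 87.8 CPM in the EPL, so no fold is given. Cck, the precursor of cholecystokinin and a gene of tufted cells, had 880, 367 and 471 CPM in the EPL and 81.4, 65.3 and 198 CPM in the IPL (log2 fold change -2.46, SE 0.42, edgeR adjusted p = 1.06e-06). Its groups did not overlap. Doc2g was lower by 2.56 (SE 0.35, edgeR adjusted p = 2.95e-10) and Map1b had a change of -1.59 (edgeR adjusted p = 2.77e-09).

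Nfia, a transcription factor gene of glia, had 55, 246 and 319 CPM in the EPL and 0, 65.3 and 79.0 CPM in the IPL. S100a5, a calcium-binding protein gene of olfactory sensory neurons, had 124, 153 and 128 CPM in the EPL and 0, 0 and 39.5 CPM in the IPL (1 count). Hba-a1 encodes alpha-globin of red blood cells, and its reads cannot be told from those of the near-identical Hba-a2 with certainty, so its change of -2.22 is uncertain. Of the 4 tested genes of the blood list, 2 passed as lower in the IPL, which were these 2 copies, beside 2.61% of all genes.

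By cell type list, all 11 tested mitral and tufted genes had a negative change from the EPL to the IPL (median -0.82, all genes -0.07), and 3 passed: Slc17a7, Doc2g and Cdhr1. Over all tested genes 44.9% had a positive change and 2.61% were called lower. All 15 tested astrocyte genes had a negative change too (median -0.53), and 3 passed: Glul (-1.22), Sparcl1 (-0.74) and S100b (-1.52). With library sizes alone, 13 of the 15 were negative and 2 passed. Glul had 1953, 3153 and 3001 CPM in the EPL and 732, 1599 and 1620 CPM in the IPL, so the levels did not overlap.

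Not all of the 64 genes are protein-coding. The 49 protein-coding genes among them split into 12 higher and 37 lower in the IPL, and the 15 genes of other types were all lower. Of those 15, 9 matched a mitochondrial transcript over 100 bases or more at an identity of 95% or higher, so their counts cannot be told from counts of that transcript. Their summed share was 1.35%, 5.17% and 5.03% of counts in the IPL and 2.55%, 8.77% and 9.74% in the EPL. With protein-coding genes alone 39 genes passed, 11 higher and 28 lower, and 38 of them were among the 64.

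Against the mean of the other 8 regions, 0 of 1996 genes passed in edgeR (0.0%), with 140 at an unadjusted p below 0.05, and DESeq2 also called 0, with 116. The 4 with the smallest p were Lonrf2, Elovl5, Ipcef1 and Gad1, each at an edgeR adjusted p of 0.301. Lonrf2, a ring finger protein gene, had 244, 261 and 435 CPM in the IPL, the highest mean (313 ± 105) of the 9 regions. Ipcef1, which encodes a protein that interacts with cytohesin exchange factors, also had its highest mean there (449 ± 70.4 CPM). That mean was only 1.06 times the mean of GCL-E and 1.10 times that of GCL-I (409 ± 87.8), the latter within the SDs.

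Genes of myelinating oligodendrocytes mostly had positive changes against M/T, with a single call. Of 26 genes 11 were tested, 8 had a positive change against M/T (median 0.90, all genes 0.01) and 1 passed, Mobp. Over all tested genes 51.2% were positive and 0.0501% were called higher. Mbp had 1668, 2153 and 1581 CPM in the IPL, 1078, 963 and 812 CPM in M/T and 2856, 896 and 1291 CPM in GCL-E. It was above M/T in each section (0.90, edgeR adjusted p = 0.0915), and in GCL-E section 1 was high where sections 2 and 3 were below the IPL. The summed level was 4964, 6166 and 5414 CPM in the IPL, 4123, 2350 and 2686 CPM in M/T and 6450, 3866 and 4124 CPM in GCL-E. The IPL was thus above both neighbours in sections 2 and 3 and between them in section 1. Of the 15 untested members, which include the oligodendrocyte transcription factors Olig1, Olig2 and Sox10, none had enough counts to pass the filter.

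Synaptic and axonal genes gave 1 call against M/T. Of 14 tested presynaptic release genes, 13 had a negative change against M/T (median -0.35, all genes 0.01) and 0 passed. Snap25, which encodes a protein of synaptic vesicle fusion, had 4476, 2545 and 2489 CPM in the IPL, 4060, 4304 and 3967 CPM in M/T and 5252, 2876 and 3999 CPM in GCL-E. The IPL was lowest of the 3 regions in sections 2 and 3 and between the others in section 1. Syt1, the calcium sensor of release, had 448, 946 and 790 CPM in the IPL and was lowest there in each section, with 761, 1557 and 1437 CPM in M/T and 553, 1792 and 1125 CPM in GCL-E (midpoint change -0.71, edgeR adjusted p = 0.451). By means, 8 of the 14 were below both neighbours, beside 31.4% of all tested genes and 21.7% of those with at least 30 IPL counts.

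Of 15 tested genes of the axon cytoskeleton and the node of Ranvier, 11 had a negative change against M/T (median -0.30) and 1 passed, Map1b, where 51.2% of all genes were positive and 0.15% were called lower. Against GCL-E 10 of the 15 were positive (median 0.13, all genes 0.04, with 52.3% of them positive) and 0 passed. Kif5a, a kinesin heavy chain that carries cargo along axons, had 448, 685 and 514 CPM in the IPL, above M/T (381, 453 and 312) and GCL-E (184, 424 and 333) in each section, without passing (midpoint change 0.64, edgeR adjusted p = 0.798). Ank3, ankyrin-G of the axon initial segment and nodes, had 610, 914 and 909 CPM in the IPL, 254, 736 and 1062 CPM in M/T and 737, 1414 and 875 CPM in GCL-E. Of 16 tested postsynaptic and receptor genes, 10 were negative against M/T and 11 against GCL-E, and 0 passed.

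Deep short-axon and other deep interneurons, which the IPL is known to hold, could not be followed. The 10 genes of that list had 26 counts in the IPL in all, and 2 were tested, Npy and Cck. The defining gene Chrna2, a nicotinic receptor subunit of deep short-axon cells, had 0 counts in the IPL of the 3 sections, as did Pvalb, Htr2a and Calb1. Of the oligodendrocyte precursor and microglia lists 0 genes were tested, with summed IPL levels of 274 ± 12.1 and 330 ± 149 CPM.

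The lists of other cell types gave few counts in the IPL. Summed levels were 1123 ± 201 CPM for endothelial and mural genes (892 ± 438 in M/T and 901 ± 206 in GCL-E) and 833 ± 252 CPM for blood genes (481 ± 320 and 795 ± 112). Genes of neuroblasts, the immature neurons that migrate into the bulb, summed to 1325 ± 310 CPM (1121 ± 190 in M/T and 1691 ± 429 in GCL-E). Genes of olfactory sensory axons, which end in the outer bulb, summed to 182 ± 87.5 CPM from 15 counts, and those of olfactory ensheathing glia to 916 ± 339 CPM (766 ± 123 in M/T and 561 ± 252 in GCL-E). Immediate early genes summed to 1750, 914 and 474 CPM in the IPL and 3041, 1320 and 1041 CPM in GCL-E, lower in the IPL in each section, with 0 calls among 3 tested genes. In these 6 lists no gene passed against M/T or GCL-E.

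Within the IPL, spots nearer to M/T were compared with spots nearer to GCL-E. The outer spots held 12558, 15242 and 13638 counts and the inner ones 11838, 15098 and 11439. Of 1399 genes that passed the filter with these smaller sums, 0 passed the test (0.0%) in edgeR, with 69 at an unadjusted p below 0.05, and 0 in DESeq2, with 57. The 4 with the smallest p were Kcnab2, Ntm, Atp5j2 and Nme7 (edgeR adjusted p = 0.209, 0.241, 0.653 and 0.74). Kcnab2, a potassium channel subunit, had 637, 65.6 and 293 CPM in the outer spots, from 13 counts, and 0 counts in the inner spots. Atp5j2, a subunit of the mitochondrial ATP synthase, had 79.6, 262 and 73.3 CPM in the outer and 676, 662 and 437 CPM in the inner spots, which did not overlap.

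Genes that marked the neighbours gave no call between outer and inner spots and no common direction. Cdhr1 had 796, 131 and 220.0 CPM in the outer and 422, 66.2 and 0 CPM in the inner spots, higher on the outer side in each section, from 21 counts in all. Mobp had 398, 787 and 513 CPM in the outer and 591, 729 and 874 CPM in the inner spots. Of 9 tested mitral and tufted genes, 7 were higher on the outer side (median 0.42, all genes 0.03), and of 15 tested astrocyte genes, 8 were (median 0.01). Of 11 tested granule genes 5 were higher on the outer side and 6 on the inner (median -0.0008). Cut into 5 parts across its width, the IPL gave summed mitral and tufted levels from 3012 ± 2672 CPM next to M/T to 2311 ± 1868 CPM next to GCL-E, and granule levels from 7542 ± 630 to 8394 ± 802 CPM (SD, n = 3). The myelin list was 4146 ± 1111 CPM in the part next to M/T, 6497 ± 1090 CPM in the middle and 4940 ± 930 CPM next to GCL-E. It was higher in the middle than next to M/T in each section, and this step exceeded the SDs of both parts. The granule step also exceeded both SDs, the mitral and tufted step did not, and none of these steps was tested.

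**Figure D4:**
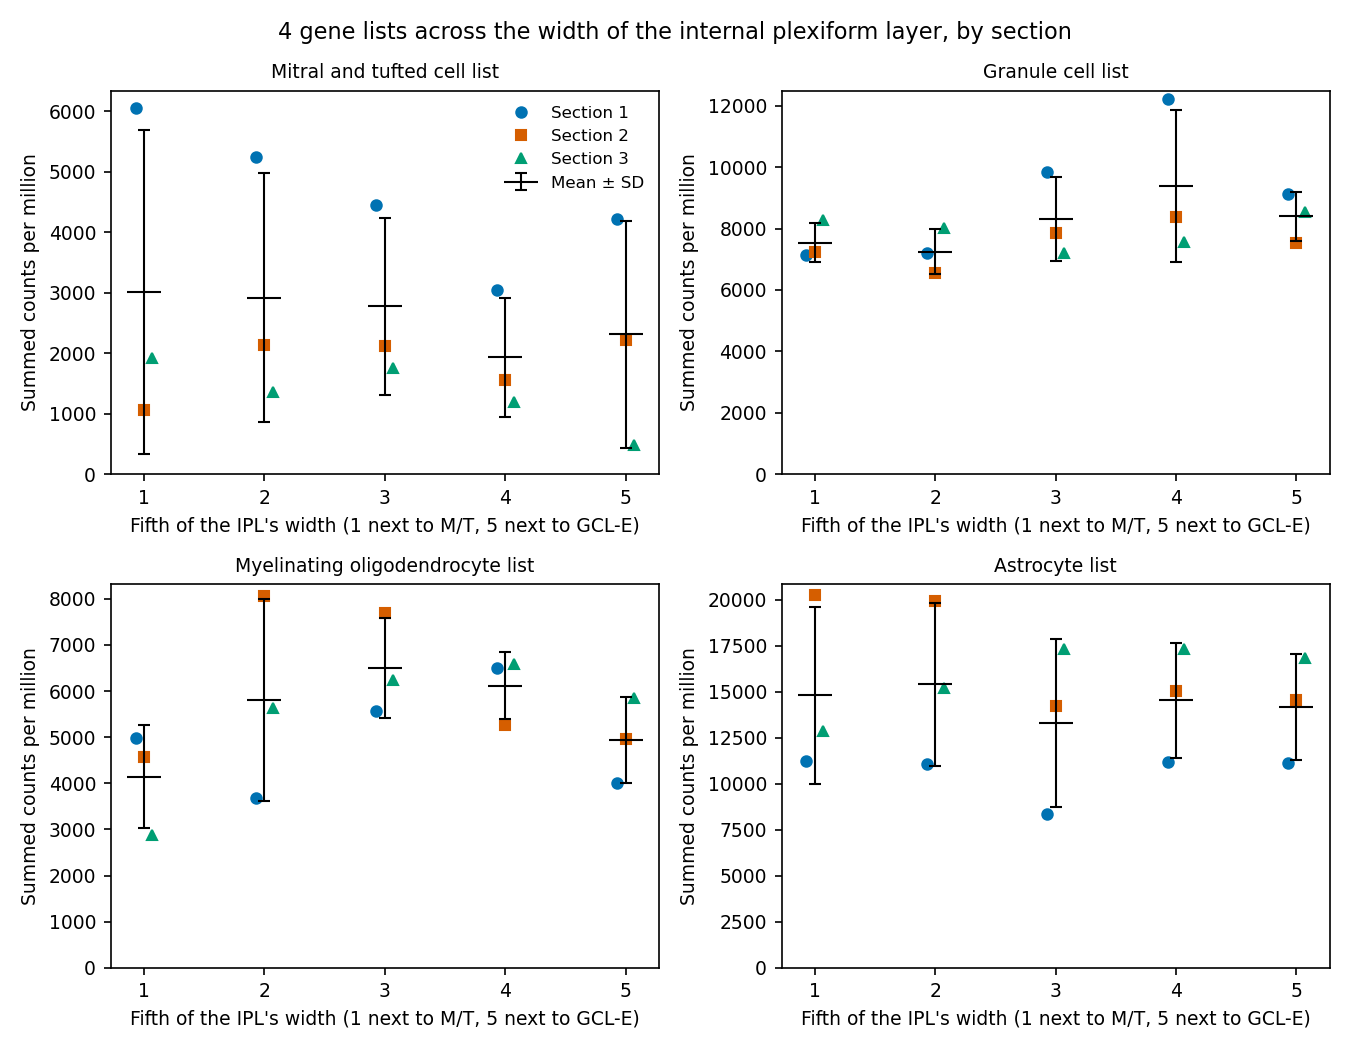
Summed level of 4 gene lists in CPM (y axes, linear) in 5 parts of the IPL's width, from the part next to M/T (1) to the part next to GCL-E (5) on the x axes; points are the 3 sections and black bars the mean ± SD. The SDs of neighbouring parts overlap in all 4 panels, and section 1 gives the highest mitral and tufted level in each part.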

How the data were processed

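Each of 3 coronal sections on a spatial transcriptomics array is 1 sample. The authors deposited raw transcript counts per spot and gene, and a table of each spot's array position, pixel position and region. Build mm10 is named in the submitters' processing notes. The aligner, the counter, strand handling, whether molecular identifiers were counted, how regions were drawn and whether expression was used for it are not given in the sources used here. Pixel position linked 100% of count entries to a region. Joined by name instead, sections 2 and 3 were offset by 1 array position, and 90.9% and 92.1% of IPL entries stayed in the IPL. Counts without a gene name (0.0325%, 0.0764% and 0.0801% of counts) and spots of no region were left out.

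Counts were summed into 27 sums of section and region (IPL sums 24576, 30651 and 25307 counts), and the depth limits genes with few counts. The edgeR 4.0.16 quasi-likelihood test (R 4.3.3) used TMM scaling, filterByExpr with a minimum count of 10, and region and section as terms, with all 9 regions in the fit. Section numbers pair the sums, since those of 1 section share its tissue: after region means were subtracted, the mean correlation was 0.365 within sections (24 pairs, lowest 0.0573) and -0.166 across them. After this subtraction, a positive value within sections makes that across them negative, so the latter adds no support. DESeq2 1.42.0, other scalings, filters, joins and fits, and each section left out, were alternatives. Comparing M/T and GCL-E with the midpoints of their own neighbours, and protein-coding genes alone, were added after seeing the data. Outer and inner IPL spots were split by the nearer of M/T and GCL-E. The pipeline was tested on simulated counts with changes set in the IPL. Against GCL-E it recovered 9.09% of 2-fold and 63.4% of 4-fold changes, and against M/T 23.9% and 74.2%. A result of 0 calls therefore does not show that 2 layers are alike.

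Named genes were, per comparison, up to 6 in each direction with the largest change among those past the threshold, with the same sign in all 3 sections and 30 counts or more in the higher region, or else the 4 with the smallest p. Of the 16 gene lists, members with at least 30 IPL counts or a call were named, and Mobp always; some genes that the rule names are not reported here. Genes at 0 in the IPL, Glul and S100b as exceptions, Cdhr1 between outer and inner spots, Lars2, Ttll7 and Ptk2b were chosen after their values were seen. The members and the lists were chosen with earlier results of these data known. Gene positions and types come from GENCODE release M21 (99.8% of 19621 symbols found), resemblance to mitochondrial transcripts from blastn 2.17.0, and figures from matplotlib 3.10.9 (Python 3.11.15).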

Additional observations from a re-analysis of the deposited data

How the results depend on the processing

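Among the counts of genes that passed, 65 kept the main count within 1.5 times or kept their position and 46 did not. RLE scaling gave 8 genes against M/T, and library sizes alone gave 1 against GCL-E, 2 against GCL-I and 2 against the midpoint. With no filter on low counts the calls were 2 against M/T, 0 against GCL-I, 0 against the midpoint and 6 between M/T and GCL-E, and the calls against the EPL were all lower in the IPL. DESeq2 called 31 genes against the EPL, 0 against GCL-I and 6 between M/T and GCL-E. With spots joined by name 10 genes passed against M/T. Without the rostral migratory system, whose sum in section 3 held 1456 counts, 11 passed against M/T, 3 against GCL-E, 2 against GCL-I and 2 against the midpoint. With only the regions compared, 13 passed against M/T and 1 against GCL-E. With protein-coding genes alone, 39 passed against the EPL and 2 against the midpoint. With no replicate block, the unpaired fit called 0 genes against M/T, the EPL, GCL-I, the midpoint and between M/T and GCL-E. The cause of these changes was not tested. Leaving out sections 1, 2 and 3 in turn gave 0 to 2 genes against the mean of the other regions, 1 to 13 against M/T, 0 to 1 against GCL-E, 5 to 61 against the EPL, 0 to 1 against GCL-I, 0 to 4 against the midpoint and 3 to 12 between M/T and GCL-E. The higher count in most of these was that without section 1, and for the EPL the lowest was without section 2 (5) and then section 3 (19). Removing IPL and other spots within 5 array positions of a border left few counts (71 in GCL-E of section 1, and 4673 to 6166 in the IPL). In that setting 0 genes passed against M/T, GCL-I, the midpoint and between M/T and GCL-E, and 20 passed against the EPL. The list positions became -20.4% (mitral and tufted) and 355% (granule), and the log2 changes of Acsl6 against GCL-E (-0.40), of Mobp between M/T and GCL-E (0.49) and of Slc1a3 against GCL-I (-0.13) reversed. The median change of all genes moved by up to 1.42 there for comparisons of the IPL, so these values say little about the layer. Scaling moved that median by over 0.1 with library sizes alone against the EPL (from -0.07 to 0.12) and with RLE (-0.09) and DESeq2 (-0.09) against M/T (0.01 in the main fit). The same held for DESeq2 against the midpoint (from 0.04 to -0.06). Depth limits the IPL most for genes under 3 counts.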

Other observations

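The unannotated spots within 5 array positions of the IPL numbered 0, 319 and 225 in sections 1, 2 and 3 and were not analysed here.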
